A study of Homo sapiens with 6 samples.

Results

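The genes of sphingosine-1-phosphate (S1P) signalling were examined in human umbilical vein endothelial cells (HUVECs), primary endothelial cells of the umbilical cord vein, transfected with a small interfering RNA (siRNA) that targets ANRIL, a long noncoding RNA. They comprised 7 genes, the receptors S1PR1, S1PR2 and S1PR3, the kinases SPHK1 and SPHK2, the lyase SGPL1 and the exporter SPNS2. A probe set, a group of probes summarised into 1 value, was a member where the platform annotation gave it exactly 1 gene symbol and that symbol was one of these. This gave 10 probe sets for 6 of the 7 genes, of 54613 probe sets tested, and SPHK2 was not analysed here. The groups were 3 arrays of HUVECs transfected with ANRIL-specific siRNA and 3 arrays of HUVECs transfected with a control scrambled siRNA, all hybridised to the Affymetrix Human Genome U133 Plus 2.0 array. All cells were kept in phenol-red-free growth medium with serum, growth factors, heparin and hydrocortisone, and both siRNAs were delivered by transient transfection. The labels do not say how long after transfection the RNA was taken, nor from how many donors the cells came, so p-values measure the spread between these samples, which may be technical. The comparison asked which transcripts differ when ANRIL is targeted.

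A single siRNA duplex defined the ANRIL siRNA group. The labels' protocol gives its sense strand, shown because it is the reagent by which the groups differ.
ANRIL siRNA, sense strand: ggauaugugccaugaguaagaauaa

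S1P is a lipid made when sphingosine, released from ceramide, is phosphorylated by the sphingosine kinases SPHK1 and SPHK2. It is cleaved irreversibly by the lyase SGPL1 in the endoplasmic reticulum, or turned back into sphingosine by phosphatases, and endothelial cells export it through SPNS2. Outside the cell it acts on G protein-coupled receptors. In endothelium S1PR1 signals through Gi to RAC1 and is known for strengthening junctions, whereas S1PR2 signals largely through G12/13 to RHOA and is known for loosening them, and S1PR3 couples to several of these G proteins.

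No difference of these genes passed the test. In the fit of limma with a constant prior over all probe sets, 0 of the 10 probe sets had a Benjamini-Hochberg adjusted p under 0.05, and 0% of all probe sets did. At an unadjusted p under 0.05 there was 1 of 10, S1PR1, against 15.1% of all probe sets. ANRIL siRNA and control values were fully apart at 2 of 10, S1PR1 and SPHK1, against 21% of all probe sets, so the share of these genes was near the background. Both were lower with ANRIL siRNA. Of all probe sets 9.97% were lower without overlap and the rest of the 21% were higher. Of the 10 probe sets 5 were higher and 5 lower with ANRIL siRNA, with a median log2 difference of −0.0021, beside 0.01 over all probe sets. The adjusted p-values lay between 0.279 and 0.955, and no 95% interval reached beyond −0.32 or 0.37, that is a 1.25-fold decrease or a 1.29-fold increase. These intervals are for each probe set alone and are not adjusted for the number tested.

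**Figure D1:**
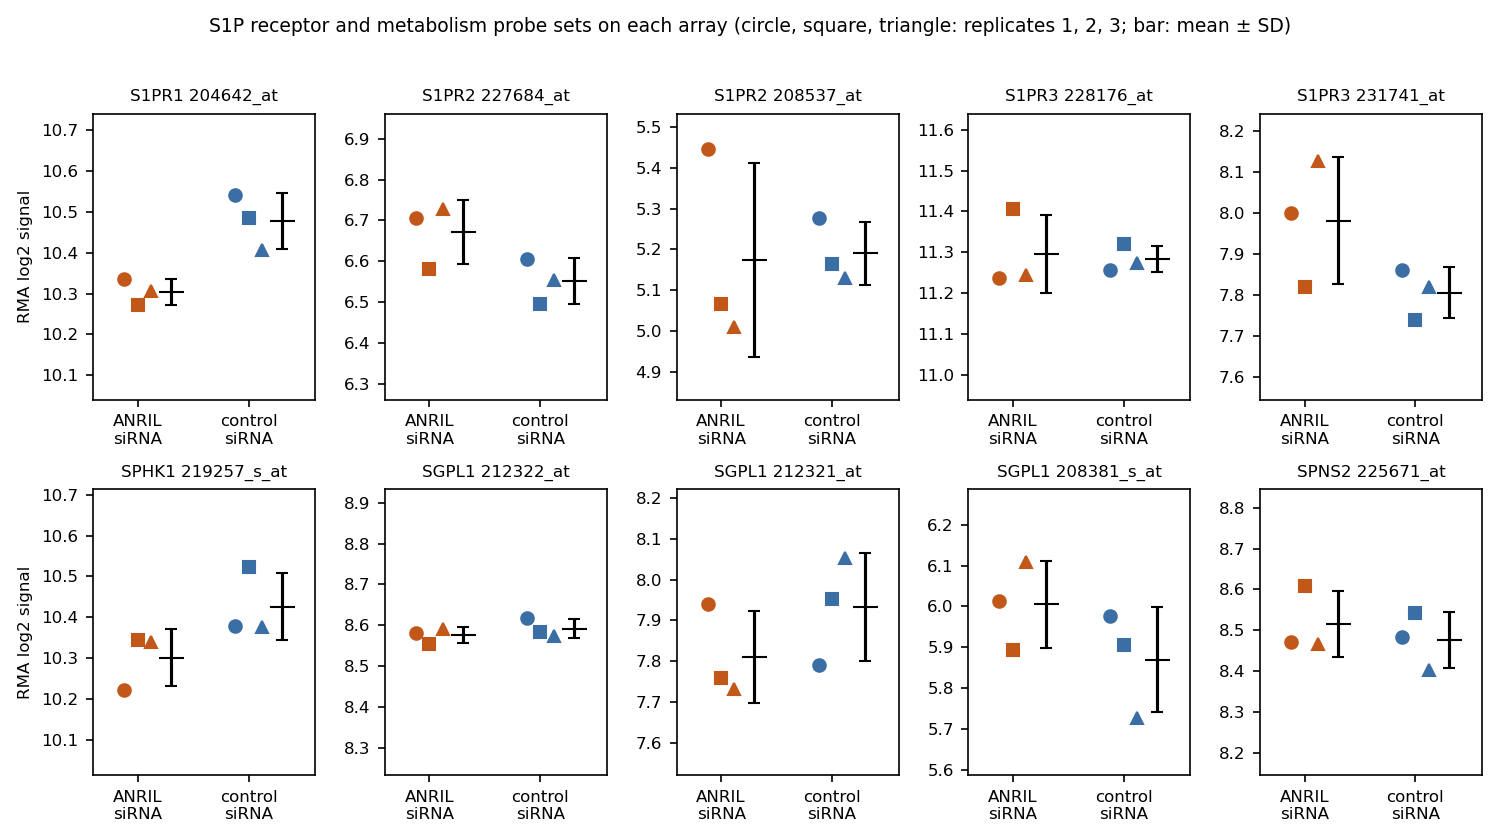
RMA log2 signal of the 10 probe sets on each array, with the ANRIL siRNA arrays on the left and the control siRNA arrays on the right of each panel, and the mean ± SD beside each group (n = 3). Every panel spans the same log2 range, and the groups separate without overlap only at S1PR1 204642_at and SPHK1 219257_s_at.

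S1PR1, the main Gi-coupled S1P receptor of endothelium, was read by 1 probe set, 204642_at, at percentile 93.1 of mean signal among all probe sets. On the log2 scale it read 10.33, 10.27 and 10.31 on the ANRIL siRNA arrays, against 10.54, 10.48 and 10.41 on the control siRNA arrays. All 3 ANRIL siRNA arrays lay below all 3 control arrays. S1PR1 differed by −0.17 ± 0.07 (SE, with 3 arrays per group, 95% interval −0.32 to −0.03), or 1.13-fold lower, with a limma adjusted p of 0.279. An exact two-sided permutation test of the 6 values gave p = 0.1, the smallest that 3 against 3 arrays allow. Bright probe sets in general were lower with ANRIL siRNA, with a median of −0.08 in the brightest decile, and 11.6% of that decile lay lower than S1PR1. After cyclic loess normalization, which removes this trend with signal, the difference was −0.09, and after repeated quantile normalization −0.08. S1PR1-DT, a noncoding transcript annotated beside S1PR1 and picked after its values were seen, differed by −0.04 ± 0.08 (adjusted p = 0.864).

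S1PR3 was read by 2 probe sets that gave different values. The brighter, 228176_at at percentile 96.3, had 11.24, 11.41 and 11.24 with ANRIL siRNA, against 11.26, 11.32 and 11.27 with control siRNA. Its groups overlapped, and the difference was 0.01 ± 0.07 (95% interval −0.15 to 0.17, limma adjusted p = 0.949). The sign of this value was not stable, being −0.04 with arrays centred on their medians and 0.09 after cyclic loess. The dimmer probe set 231741_at, at percentile 74, had 8.0, 7.82 and 8.13 with ANRIL siRNA, against 7.86, 7.74 and 7.82 with control siRNA. Here ANRIL siRNA replicate 2 equalled control replicate 3 and the other ANRIL siRNA arrays lay above every control. This was the highest difference among the 10 probe sets, 0.18 ± 0.09 (95% interval −0.02 to 0.37, adjusted p = 0.364). It was 0.20 after cyclic loess, and with 1 array left out it lay between 0.10, without ANRIL siRNA replicate 3, and 0.26. In its decile of signal 95.6% of probe sets lay lower. The mean of both S1PR3 probe sets differed by 0.09 (adjusted p = 0.345 over genes).

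S1PR2, the receptor coupled largely to G12/13, was read by 2 probe sets of middle to low signal, at percentiles 57.4 and 31.6. At 227684_at the values were 6.71, 6.58 and 6.73 with ANRIL siRNA, against 6.61, 6.50 and 6.55 with control siRNA. ANRIL siRNA replicate 2 fell between the control values, and the difference was 0.12 ± 0.07 (95% interval −0.04 to 0.27, adjusted p = 0.439), or 0.08 after cyclic loess. At 208537_at the values were 5.45, 5.07 and 5.01 with ANRIL siRNA, against 5.28, 5.16 and 5.13 with control siRNA. ANRIL siRNA replicate 1 was above all controls and the other ANRIL siRNA arrays below them. The difference of −0.02 ± 0.11 (adjusted p = 0.955) turned to 0.05 with array weights and became −0.15 without ANRIL siRNA replicate 1.

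SPHK1, the inducible sphingosine kinase that makes S1P at the plasma membrane, was read by 1 probe set, 219257_s_at, at percentile 93. It had 10.22, 10.34 and 10.34 with ANRIL siRNA, against 10.38, 10.52 and 10.38 with control siRNA. The groups did not overlap, but the highest ANRIL siRNA and lowest control values lay close together. The difference was −0.12 ± 0.07 (95% interval −0.29 to 0.04, limma adjusted p = 0.431), or 1.09-fold lower. In the brightest decile 26.4% of probe sets lay lower still. After cyclic loess it was −0.04 and after repeated quantile normalization −0.03, and without control siRNA replicate 2 it was −0.08.

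SGPL1, the lyase that ends S1P signalling, was read by 3 probe sets whose differences had both signs. The brightest, 212322_at at percentile 80.4, had 8.58, 8.55 and 8.59 with ANRIL siRNA, against 8.62, 8.58 and 8.57 with control siRNA. These groups overlapped within a narrow range, with SDs of 0.02 in both groups, and differed by −0.02 ± 0.06 (95% interval −0.15 to 0.12, adjusted p = 0.919). The sign turned after cyclic loess (0.03) and after a repeated quantile normalization (0.04). At 212321_at the values were 7.94, 7.76 and 7.73 with ANRIL siRNA, against 7.79, 7.95 and 8.05 with control siRNA, with a difference of −0.12 ± 0.09 (adjusted p = 0.526). It was −0.06 without control siRNA replicate 3, and −0.19 without control siRNA replicate 1 or ANRIL siRNA replicate 1. At 208381_s_at they were 6.01, 5.89 and 6.11 with ANRIL siRNA, against 5.98, 5.91 and 5.73 with control siRNA, with a difference of 0.14 ± 0.09 (adjusted p = 0.473). After cyclic loess it was 0.07, without control siRNA replicate 3 it was 0.06 and without ANRIL siRNA replicate 3 it was 0.08. ANRIL siRNA and control arrays overlapped at both. The mean of the 3 probe sets differed by −0.0009 (adjusted p = 0.994 over genes).

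SPNS2, the S1P exporter of endothelial cells, had 8.47, 8.61 and 8.47 with ANRIL siRNA, against 8.48, 8.54 and 8.40 with control siRNA at 225671_at, percentile 79.7. The groups overlapped, and the difference was 0.04 ± 0.07 (95% interval −0.12 to 0.20, adjusted p = 0.822). Cyclic loess gave 0.09, arrays centred on their medians −0.01, and the fit without ANRIL siRNA replicate 2 −0.0075. Percentiles place each probe set among all probe sets, and since probe sets differ in how brightly they report a transcript, they give no order of abundance between these genes.

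**Figure D2:**
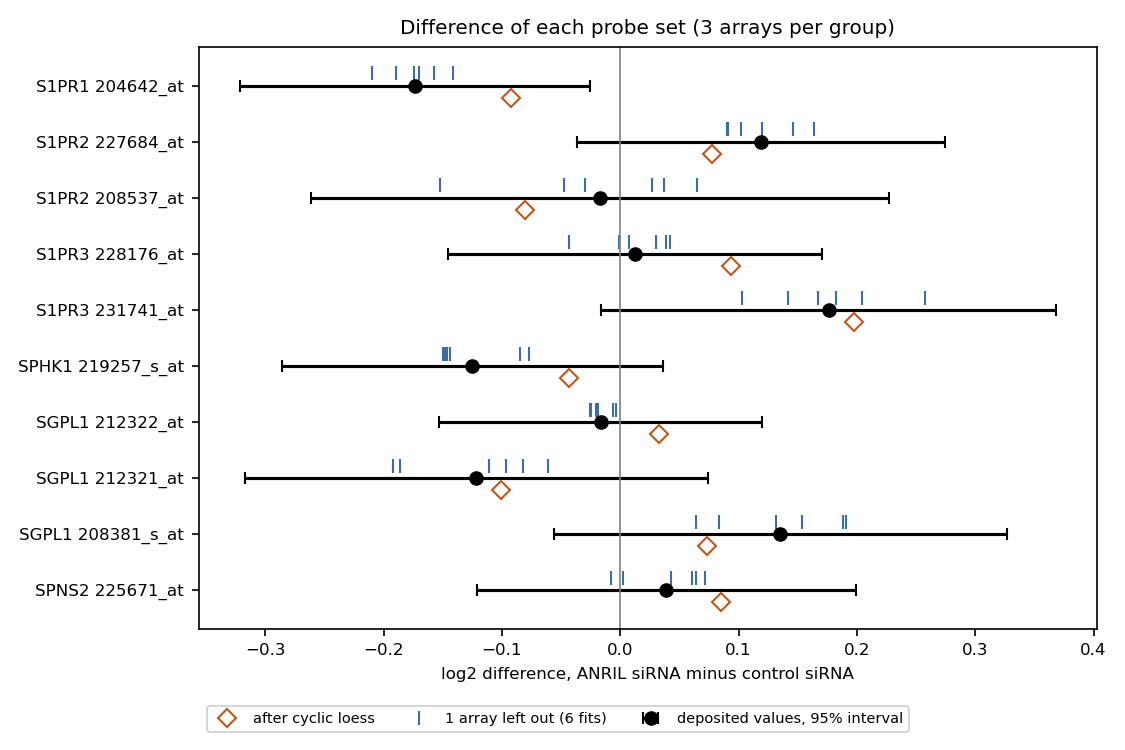
Log2 difference, ANRIL siRNA minus control siRNA, of each of the 10 probe sets with its 95% interval from the limma fit (n = 3 per group), with the difference after cyclic loess and the 6 differences with 1 array left out. The interval of S1PR1, not adjusted for the number of tests, is the only one that leaves out 0, and after cyclic loess the S1PR1 value moves to −0.09.

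The differences followed the signal of the probe sets only in part. Over all probe sets the median difference was 0.06 in decile 4 of mean signal, −0.07 in decile 9 and −0.08 in decile 10, and 12.9% of decile 10 lay above 0. S1PR1 and SPHK1 lay below the median of that decile and the brighter S1PR3 probe set above it, where 90.7% of the decile lay lower than S1PR3. The integrity controls on the array, ACTB and GAPDH, also had a higher mean excess of 3' over 5' signal with ANRIL siRNA. Their groups overlapped for ACTB but not for GAPDH. The signal of ACTB at its 3' end exceeded that at its 5' end by 0.72 ± 0.13 with ANRIL siRNA and 0.54 ± 0.05 with control siRNA (log2, SD, n = 3, exact permutation p = 0.2), and for GAPDH by 0.06 ± 0.03 with ANRIL siRNA and −0.0013 ± 0.01 with control siRNA (exact permutation p = 0.1). The part of these in the values above was not tested.

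**Figure D3:**
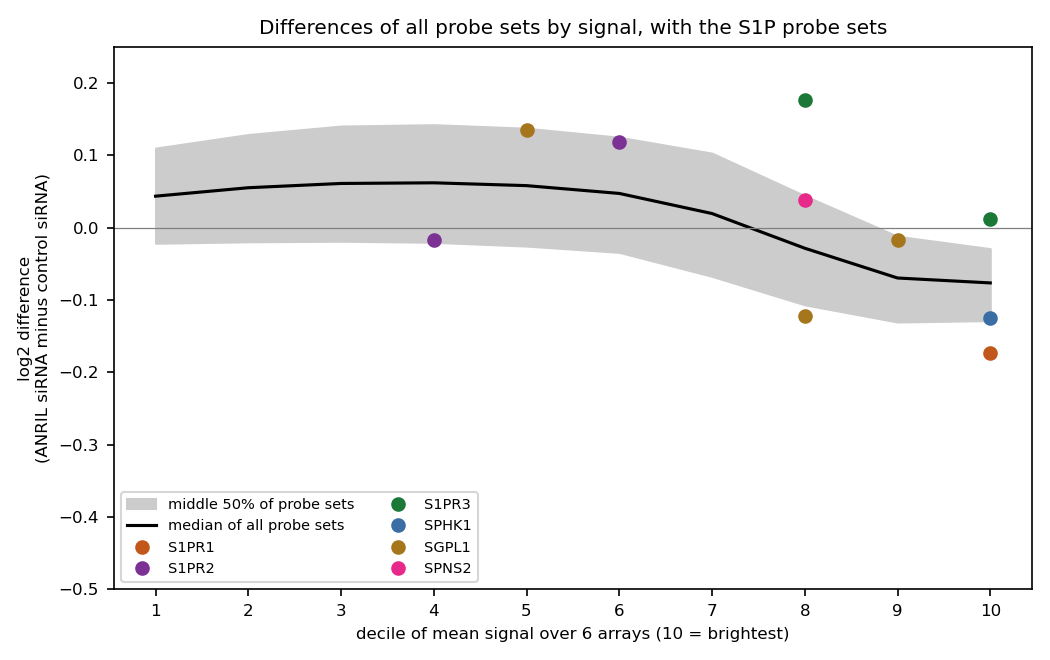
Log2 difference, ANRIL siRNA minus control siRNA, by decile of mean signal, with the median (line) and middle 50% (band) of the 54613 probe sets and the 10 S1P probe sets as points. The line lies above 0 in dim deciles and at −0.08 in the brightest, where S1PR1 and SPHK1 lie below it and S1PR3 above it.

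S1PR1 and SPHK1 were the genes whose groups did not overlap, and their promoters are shown for that reason. The 250 bases before the annotated start come from RefSeq on GRCh38.p14, whose promoter table matched 6 of the 7 genes, all except SPNS2. Capitals mark matches, on either strand, to CACCC, the core bound by Krüppel-like factors, and to GGGCGG, the GC box. For SPHK1, with 3 starts in the table, the most upstream one is shown. The windows are chr1:101236769-101237018 and chr17:76382954-76383203, both on the plus strand.
S1PR1: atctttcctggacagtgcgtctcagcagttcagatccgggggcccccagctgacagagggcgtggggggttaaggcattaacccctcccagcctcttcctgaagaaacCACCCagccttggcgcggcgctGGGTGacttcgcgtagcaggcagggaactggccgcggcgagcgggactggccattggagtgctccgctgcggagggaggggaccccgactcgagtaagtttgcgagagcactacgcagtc
SPHK1: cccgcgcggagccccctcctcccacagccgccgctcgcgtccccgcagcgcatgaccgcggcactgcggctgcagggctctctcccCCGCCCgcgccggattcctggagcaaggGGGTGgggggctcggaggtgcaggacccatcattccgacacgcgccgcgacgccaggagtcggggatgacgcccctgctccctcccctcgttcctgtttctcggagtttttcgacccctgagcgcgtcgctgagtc
The S1PR1 window held CACCC 2 times and SPHK1 1 time, and 54.7% of 35116 promoter windows of that length hold it. The GC box was found 1 time in the SPHK1 window and in 42.6% of all windows. Neither window held the AP-1 motif TGANTCA or the STAT motif TTCNNNGAA, each present in 6.57% of windows. No marked match overlapped another. KLF2 is a flow-induced endothelial transcription factor of the Krüppel-like family. At the brighter of its 2 probe sets it differed by −0.13 ± 0.06 (limma adjusted p = 0.293 over genes), and by −0.05 after cyclic loess. Its values were 11.85, 11.93 and 11.83 with ANRIL siRNA, against 12.04, 12.01 and 11.95 with control siRNA. In the brightest decile 23.7% of probe sets lay lower than KLF2. The part of KLF2 in the S1PR1 and SPHK1 values was not tested.

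The genes around S1P were taken from 5 lists, with 1 probe set per gene, the brightest, in a limma fit over 19775 genes. Of 88 genes 81 were measured, and 0 passed, as for 0% of all genes. At an unadjusted p under 0.05 there were 20 of them, or 24.7%, against 18% of all genes, and the groups did not overlap at 28 of 81, against 23.4% of all genes. Of the 81 genes 57 were lower and 24 higher, with a median of −0.05, and 48.6% of all genes were above 0. This direction depended on the scaling, since 49 of the 81 were higher when quantiles were normalized again and 47 after cyclic loess, with medians of 0.02 and 0.01. With arrays centred on their medians 61 were lower.

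Among the enzymes and carriers that remove or move S1P, 9 of 12 measured genes were lower, with a median of −0.07, but 6 of 12 after either cyclic loess or repeated quantile normalization. PLPP3, a membrane phosphatase that dephosphorylates S1P and lysophosphatidic acid at the cell surface, had the smallest p of all 81 genes. Its log2 signal was 9.52, 9.48 and 9.44 with ANRIL siRNA, against 9.86, 9.89 and 9.76 with control siRNA. The groups were well apart, and the difference was −0.36 ± 0.06, or 1.28-fold lower, with an adjusted p of 0.125 over genes. All 3 PLPP3 probe sets were lower, by −0.14 to −0.36 with a mean of −0.24, and after cyclic loess the brightest differed by −0.28. PLPP3 passed in 4 of 16 alternative settings, with an adjusted p between 0.00207 and 0.387 over all 16. These were an intensity-trended robust prior (adjusted p = 0.00207, with 2.74% of all genes called), the same prior after cyclic loess (0.0125, with 0.678% called), arrays centred on their medians (0.0315, with 0.162% called) and only genes above the median signal (0.00978, with 3.13% called). With the trended prior it also passed without each of the 6 arrays in turn (0.00119 to 0.0319). PLPP2, a phosphatase of the same family, was at 7.86, 7.98 and 7.84 with ANRIL siRNA, against 8.17, 8.22 and 8.14 with control siRNA. Its difference of −0.28 ± 0.06 (adjusted p = 0.147) passed in 2 of 16 settings, with the trended prior (0.0279) and above the median signal (0.0283), and with the trended prior it passed in 2 of the 6 fits without 1 array. The cholesterol exporter ABCA1, which is reported to release S1P from some cells, differed by −0.26 ± 0.12 with overlapping groups (adjusted p = 0.276). The ABCA1 value was −0.31 after cyclic loess, −0.41 without control siRNA replicate 3 and −0.18 without control siRNA replicate 2. As the mean of 4 probe sets, of which 3 were lower, it was −0.13. The specific S1P phosphatase gene SGPP1, of the endoplasmic reticulum, differed by −0.07 ± 0.06 (adjusted p = 0.541), and PLPP1 by −0.02 ± 0.06 (adjusted p = 0.89).

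Among the other lysophospholipid receptors 4 of 7 measured genes were higher, with a median of 0.12, and likewise 4 of 7 under each of the 3 rescalings. S1PR5, a receptor best known from natural killer cells and oligodendrocytes, had 6.75, 6.21 and 6.46 with ANRIL siRNA, against 6.14, 6.11 and 6.25 with control siRNA. ANRIL siRNA replicate 2 lay among the controls, and the difference was 0.30 ± 0.12 (adjusted p = 0.22), with all 3 probe sets higher. Without ANRIL siRNA replicate 1 it was 0.17. S1PR4, a receptor of lymphoid cells, was at 7.16, 7.29 and 7.26 with ANRIL siRNA, against 7.14, 7.03 and 7.10 with control siRNA (0.15 ± 0.06, adjusted p = 0.258). Dim probe sets tended to be higher with ANRIL siRNA, with a median difference of 0.05 in decile 6, where S1PR5 lay, and 0.02 in decile 7, where S1PR4 lay. In these deciles 98.5% of probe sets lay lower than S1PR5 and 85.3% lower than S1PR4. After cyclic loess the differences were 0.25 for S1PR5 and 0.13 for S1PR4. LPAR6, a G12/13-coupled receptor for lysophosphatidic acid, differed by −0.24 ± 0.07 (adjusted p = 0.169), with 1 of its 2 probe sets lower and a mean of −0.04 over both. LPAR4 differed by −0.17 ± 0.06 at percentile 4.24 of signal (adjusted p = 0.2).

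The genes of ceramide and sphingosine supply showed 17 of 27 measured members lower and a median of −0.03, but 19 of 27 were higher after cyclic loess and 21 with quantiles normalized again. DEGS1, the desaturase that makes ceramide in the last step of its synthesis, had 11.36, 11.42 and 11.29 with ANRIL siRNA, against 11.55, 11.61 and 11.56 with control siRNA. The groups did not overlap, the difference was −0.22 ± 0.06 (adjusted p = 0.164), and both DEGS1 probe sets were lower. It passed with the trended prior (0.0164) and above the median signal (0.0487), but with the trended prior in only 2 of the 6 fits without 1 array, and was at −0.13 after cyclic loess. SMPD3, a neutral sphingomyelinase, differed by 0.24 ± 0.08 (adjusted p = 0.193), and the ceramide synthase gene CERS4 by 0.13 ± 0.06 (adjusted p = 0.306), both from dim probe sets. In decile 4 of signal, with a median of 0.06, 92.9% of probe sets lay lower than SMPD3 and 71.4% lower than CERS4. After cyclic loess SMPD3 was at 0.17, CERS4 at 0.06 and the median of that decile at −0.0028. SPTLC1, a subunit of the enzyme that starts sphingolipid synthesis, differed by −0.05 ± 0.06 (adjusted p = 0.664).

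Of the G proteins, GTPases and effectors downstream of the receptors 18 of 21 were lower, with a median of −0.08. The brightest decile, whose own median was also −0.08, held 13 of them, and 10 of 21 were lower after cyclic loess and 11 with quantiles normalized again. GNAI2 encodes a Gi subunit through which S1PR1 signals and had 10.24, 10.25 and 10.36 with ANRIL siRNA, against 10.40, 10.60 and 10.55 with control siRNA. Its groups did not overlap, and it differed by −0.24 ± 0.07 (adjusted p = 0.17). GNA11, a Gq family subunit, differed by −0.20 ± 0.06 (adjusted p = 0.17) and was lower at all 6 of its probe sets. After cyclic loess the differences were −0.15 for GNAI2 and −0.12 for GNA11. Both passed with the trended prior (0.0309 for GNAI2 and 0.041 for GNA11) but in none of the other 15 settings each. With that prior and 1 array left out, GNAI2 passed in 3 of 6 fits and GNA11 in 1 of 6. NOS3, the endothelial nitric oxide synthase, which S1P receptors activate through AKT1, differed by −0.23 ± 0.08 at its brighter probe set (adjusted p = 0.193; −0.15 after cyclic loess) and by 0.10 at the other. RAC1 and RHOA, the GTPases downstream of S1PR1 and S1PR2, differed by −0.03 ± 0.06 each (adjusted p = 0.799 and 0.76).

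Of the regulators of receptor desensitisation, trafficking and transcription 10 of 14 measured genes were lower, with a median of −0.06, but 7 after cyclic loess and 6 with quantiles normalized again. RGS3, an activator of GTP hydrolysis on Gi and Gq, had 9.78, 9.82 and 9.73 with ANRIL siRNA, against 9.98, 10.05 and 10.01 with control siRNA. It differed by −0.24 ± 0.06 (adjusted p = 0.15), passed with the trended prior (0.0233) and above the median signal (0.0352), and was lower at 2 of 3 probe sets, with a mean of −0.10. With the trended prior it passed in 2 of the 6 fits without 1 array. RGS2, which acts mainly on Gq, differed by −0.21 ± 0.07 (adjusted p = 0.187; −0.14 after cyclic loess), and the ubiquitin ligase gene WWP2 by −0.18 ± 0.06 (adjusted p = 0.208), with 2 of 4 probe sets lower and a mean of −0.05 over them. The receptor kinase genes GRK2 and GRK5 differed by 0.02 ± 0.08 and −0.02 ± 0.07 (adjusted p = 0.916 and 0.922).

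**Figure D4:**
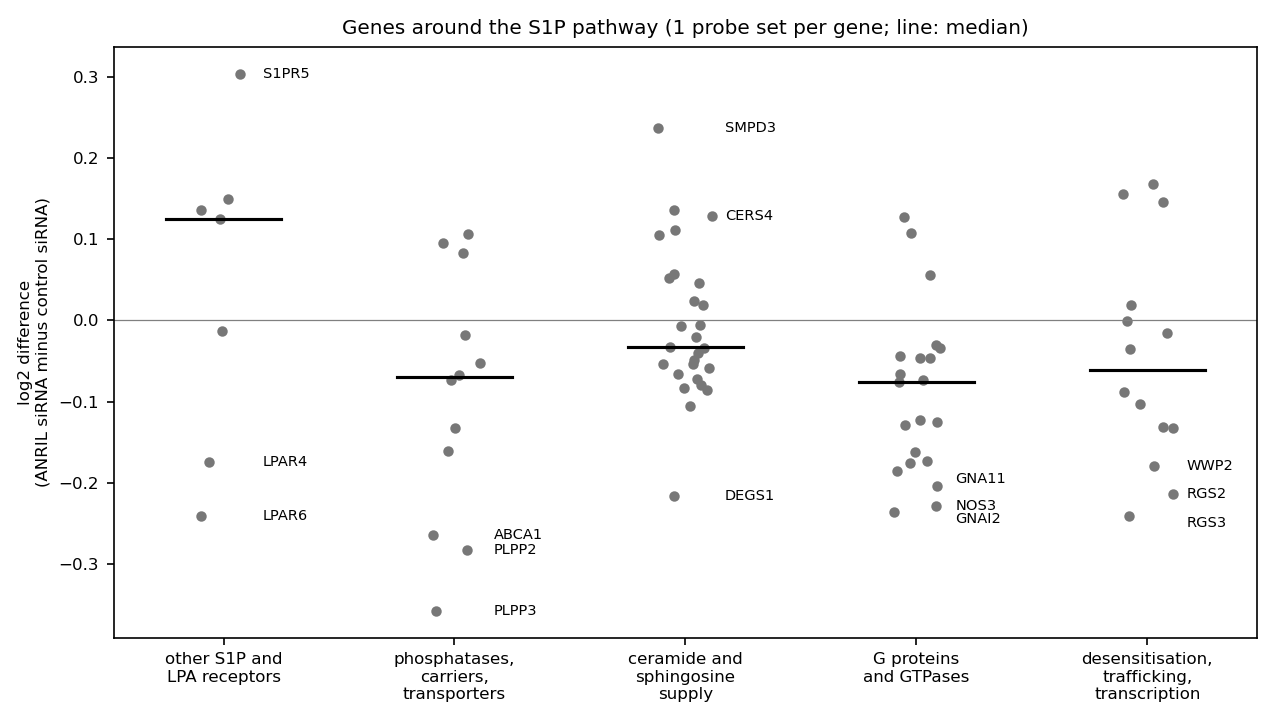
Log2 difference, ANRIL siRNA minus control siRNA, of the 81 measured genes of the 5 lists, 1 point per gene at its brightest probe set, with the list median as a line and the 3 genes of smallest p in each list named. PLPP3, at −0.36, is the lowest and S1PR5, at 0.30, the highest.

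The array patterns of the genes were compared over the 6 arrays with those of 13020 other genes whose brightest probe set lay above the median signal of all probe sets. For S1PR1 the closest were IL33, a nuclear cytokine (r = 0.9987, difference −0.43, adjusted p = 0.144), and CPTP, a lipid transfer protein (r = 0.9940, difference −0.16, adjusted p = 0.232), and 105 genes had r above 0.95. For SPHK1 the closest were COL6A1 (r = 0.9916) and PHF20L1 (r = 0.9905), for S1PR2 INCENP (r = 0.9977) and TYR (r = 0.9940), and for S1PR3 MICA (r = 0.9948) and LUC7L2 (r = 0.9908). For SGPL1 they were RSF1 (r = 0.9942) and DNAJC1 (r = 0.9849), and for SPNS2 TIMM17B (r = 0.9845) and BACH1 (r = 0.9792). Genes with r above 0.95 numbered 114 for SPHK1, 102 for S1PR2, 49 for S1PR3, 14 for SGPL1 and 11 for SPNS2. The closest genes were picked as the highest among 13020, so their r is high by selection. Between the 6 measured genes themselves r ranged from −0.81 for S1PR2 and SPHK1 to 0.84 for S1PR3 and SPNS2 over 15 pairs. These are descriptions over 6 arrays that share their group difference and their normalization.

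The markers of the labelled cell type were present, and all 10 endothelial markers lay between percentiles 87.9 and 99.4 of signal. All 10 were lower with ANRIL siRNA, with a median difference of −0.17, and 9 of 10 after cyclic loess, with a median of −0.10. None of the 10 passed (limma, lowest adjusted p = 0.125, 6 at an unadjusted p under 0.05), and 9 lay in the brightest decile, where 12.9% of all probe sets were above 0. Their summed linear signal was 38704 to 41549 with ANRIL siRNA and 43830 to 46755 with control siRNA. In bulk samples fewer cells of a type and less RNA per cell cannot be told apart, and the part of this in the S1PR1 value was not tested. Leukocyte markers summed to 486 to 540 with ANRIL siRNA and 433 to 476 with control siRNA, with 6 of 7 higher. The 1 that was lower was PTPRC, the pan-leukocyte marker, at percentile 14.7. It differed by −0.07 ± 0.09 with overlapping groups (limma adjusted p = 0.684 over genes), and by −0.13 after cyclic loess. Of the 6 that were higher, LYZ differed by only 0.0061. None of the 7 passed (limma, 4 at an unadjusted p under 0.05), 5 were higher after cyclic loess, and in decile 4 of signal, which held 3 of them, 69.3% of all probe sets were above 0. CD3E, the brightest of the 7, lay in decile 8, where 39.35% were above 0. It differed by 0.22 ± 0.08 (limma adjusted p = 0.199 over genes), and by 0.23 after cyclic loess. The part of the leukocyte markers in the S1PR4 and S1PR5 values was not tested. Platelet and erythroid markers summed to 767 to 797 with ANRIL siRNA and 730 to 796 with control siRNA. Fibroblast markers summed to 978 to 1063 with ANRIL siRNA and 932 to 972 with control siRNA, mostly COL1A1, while 4 of 7 were lower, with a median of −0.05. The sums of epithelial markers were 441 to 453 with ANRIL siRNA and 416 to 450 with control siRNA. Smooth muscle and pericyte markers summed to 15042 to 15439 with ANRIL siRNA and 15608 to 15827 with control siRNA, mostly RGS5, which the desensitisation list also holds, while 5 of 8 were higher, with a median of 0.12. The probe set of the targeted transcript, listed as CDKN2B-AS1, lay at percentile 9.39, with 3.69, 4.05 and 4.05 with ANRIL siRNA, against 4.08, 4.05 and 3.95 with control siRNA (−0.10 ± 0.10, adjusted p = 0.666), so at this signal the array gave no check of the knockdown. Array medians lay between 6.14 and 6.23, and arrays correlated at 0.9971 to 0.9977 within and 0.9964 to 0.9974 between groups, across probe sets.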

How the data were processed

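Expression was measured on 6 Affymetrix arrays, 3 with ANRIL siRNA and 3 with control siRNA, grouped by their titles. The deposited values are log2 expression values per probe set, made by the authors with RMA, affy and limma, per the submitters' processing notes. RMA corrects background, normalizes quantiles across arrays and summarises probes. Their versions were not given in the sources used here. Of 54675 probe sets 62 controls were left out. Of the rest 41091 were listed with 1 gene symbol, 1801 with several symbols, and 11721 had no listing. Symbols were updated by Entrez identifier (41037 matched, RefSeq GRCh38.p14). Differences are ANRIL siRNA minus control siRNA, fitted across all probe sets, or across genes at their brightest probe set, with limma 3.58.1 in R 4.3.3 (constant prior, no replicate block), two-sided, Benjamini-Hochberg adjusted, with a threshold of 0.05. The number of arrays limits the precision.

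The text names the members, the 3 genes of smallest p in each of 5 lists and the 2 genes most like each member above the median signal of all probe sets (the signal filter among the alternatives uses the median of the genes tested). Other list genes (KLF2, SGPP1, PLPP1, S1PR4, SPTLC1, RAC1, RHOA, GRK2 and GRK5) and S1PR1-DT were added for their role after their values were seen. The members and lists were chosen with earlier results of these data known. Tested on simulated data of 54613 probe sets, the fit recovered 65% of 1.5-fold and 92% of 2-fold changes, with 3 false calls. The simulated noise was independent and held no trend of differences with signal. Changes under 1.5-fold, such as those reported above, were not simulated, so these rates do not describe them. The alternatives were a replicate block, a trended robust prior, array weights, 3 rescalings, cyclic loess with the trended prior, a signal filter, other probe set rules and arrays left out.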

Additional observations from a re-analysis of the deposited data

How the results depend on the processing

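None of the 138 member probe set values under the alternatives passed (adjusted p from 0.126), and 125 kept their sign. At an unadjusted p under 0.05 there was 1 member probe set, 1 member gene and 20 list genes. The sign turned for the dimmer S1PR2 probe set with array weights (0.0508) and with 1 array left out (−0.153 to 0.0651). It turned for the brighter S1PR3 probe set with arrays centred on their medians (−0.0379), with array weights (−0.0066) and with 1 array left out (−0.0431 to 0.0419). The brightest SGPL1 probe set turned after repeated quantile normalization (0.0424) and cyclic loess with either prior (0.0327), and SPNS2 with centred arrays (−0.0113) and with 1 array left out (−0.0075 to 0.0717). NOS3 turned to 0.10 without _s_at and _x_at probe sets, a rule that drops its brighter probe set and reads the other. The cause of the sign changes of the members was not tested. The count of list genes that passed, 0 of 81 in the fit reported, was 6 with the trended robust prior, where 2.74% of all genes passed. It was 4 above the median signal only (3.13% of the genes tested there) and 1 with centred arrays (0.162% of all genes). After cyclic loess with the trended prior it was 1 (0.678% of all genes). With the trended prior and 1 array left out, alternatives added after seeing the data, the count was 1 to 15, while no member passed. It was 15 without ANRIL siRNA replicate 2, where 350 of all 19775 genes passed as higher and 1118 as lower. Without control siRNA replicate 3 it was 7, where 100 of all genes passed as higher and 402 as lower. Centred arrays moved the median of all probe sets to −0.04. Same-numbered arrays deviated together at r = 0.061, 0.139 and −0.040, and 3 of 6 arrays correlated best with their own number. With 3 arrays per group these values cannot decide whether the numbers pair the samples. With the replicate block 0 member probe sets and 0 list genes passed, with S1PR1 at an adjusted p of 0.284. The SPHK1 value without _s_at and _x_at probe sets could not be given, since its only probe set is of that kind. Dim probe sets (208537_at of S1PR2 and the dimmest of SGPL1, both below the median signal of all probe sets) are limited by their low signal. The other S1PR2 probe set, at percentile 57.4, lay above that median.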
